A study of Mus musculus with 2 samples.

Results

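The RNA levels of 31 mouse genes that sense foreign or misplaced nucleic acids, relay that signal or limit it were compared between cultured pro-B cells with deleted and undeleted Setdb1. The genes were chosen by name, as the endosomal Toll-like receptors, the cytosolic RNA and DNA sensors, the enzymes that keep their ligands low, and the adaptors, kinases and transcription factors that act after them. They are 31 of the 36980 named genes in the deposited table, and all 31 were listed there. Setdb1 encodes a histone methyltransferase known for silencing endogenous retroviruses, and the study profiled gene expression after its loss. Pro-B cells are bone marrow precursors of B lymphocytes. The 2 groups were Setdb1 Δ/Δ cells, with deleted alleles, and Setdb1 C/C cells, with undeleted alleles, and both carried a bcl2 transgene (bcl2-tg). Cells of both genotypes were purified by FACS from bone marrow and grown with IL-7 at 5 ng/µl, and RNA was taken on day 4. Not given in the sources used here are the agent that deletes Setdb1, the exons it removes, and the strain, age, sex and number of animals.

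With 1 library for each genotype, replicate error could not be estimated, and the differences below carry no p-values. The depth recovered from the values was 193.2 M reads for Setdb1 Δ/Δ and 170.6 M reads for Setdb1 C/C. Levels are RPKM, reads per kilobase of transcript at a common depth, for the transcript of highest mean level of each gene. For 10 of the 31 genes that transcript is not typed as protein-coding. They are Ifih1, Dhx58, Mavs, Cgas, Eif2ak2, Samhd1, Rnaseh2a, Rnaseh2b, Irak4 and Traf6. Ratios are Setdb1 Δ/Δ over Setdb1 C/C, and each is followed by an exact 95% interval that covers counting error only. Genes that reached 1 RPKM in either library are called measured. They are called higher or lower in Setdb1 Δ/Δ when log2((Δ/Δ + 0.5) / (C/C + 0.5)) of the RPKM values was at least 1 or at most -1, a 2-fold change on that scale. The targeted gene had 12.6 RPKM in Setdb1 Δ/Δ and 17.0 RPKM in Setdb1 C/C, a ratio of 0.743 (0.717 to 0.77), and a level over the whole transcript does not check a deletion of unnamed exons. The cultures also differed in sex markers. Xist, the RNA of the inactive X chromosome, had 23.7 RPKM in Setdb1 Δ/Δ and 0.094 RPKM in Setdb1 C/C. Y-linked Ddx3y had 0.009 RPKM in Setdb1 Δ/Δ and 10.2 RPKM in Setdb1 C/C. Genotype and sex of the source animals therefore cannot be told apart for any gene here.

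Cells find foreign nucleic acid in separate compartments. Toll-like receptors of the endosome are carried there by Unc93b1 and signal through Myd88 or Ticam1, whereas RIG-I-like receptors in the cytosol signal through Mavs, and cytosolic DNA is read by Cgas, which signals through Tmem173 (STING), and by Aim2. Apart from that of Aim2, these routes lead to the kinases Tbk1 and Ikbke or to the transcription factors Irf3 and Irf5. Known outputs of the routes are interferons and inflammatory cytokines. B lineage cells are known to use Tlr7 and Tlr9, and loss of enzymes such as Trex1, Samhd1, Adar or RNase H2 is known to cause interferon-driven disease in humans.

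Of the 31 genes, 27 were measured. Tlr7 and Zbp1 were higher in Setdb1 Δ/Δ and Tlr9 and Samhd1 were lower, and 23 lay within the 2-fold range. Each direction held 7.41% of the measured sensing genes, against 6.28% higher and 6.66% lower among all 12556 measured genes, so the shares were close to the background. With a 1.5-fold rule 7 of the 27 were higher and 6 lower, against 12.6% higher and 16.7% lower of all measured genes, and with a 4-fold rule 1 was higher and 0 lower, against 1.75% and 1.86%. The median log2 ratio was -0.05 for the sensing genes and -0.09 for all measured genes. Its sign depended on the scaling, so no common direction is given. The sensing genes were spread more widely, with a median absolute log2 ratio of 0.58, against 0.36 for all measured genes. The 4 genes below the filter were Tlr3, Tlr8, Tlr13 and Cgas. Ifih1 passed the filter through Setdb1 Δ/Δ alone and Tlr9 through Setdb1 C/C alone.

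**Figure D1:**
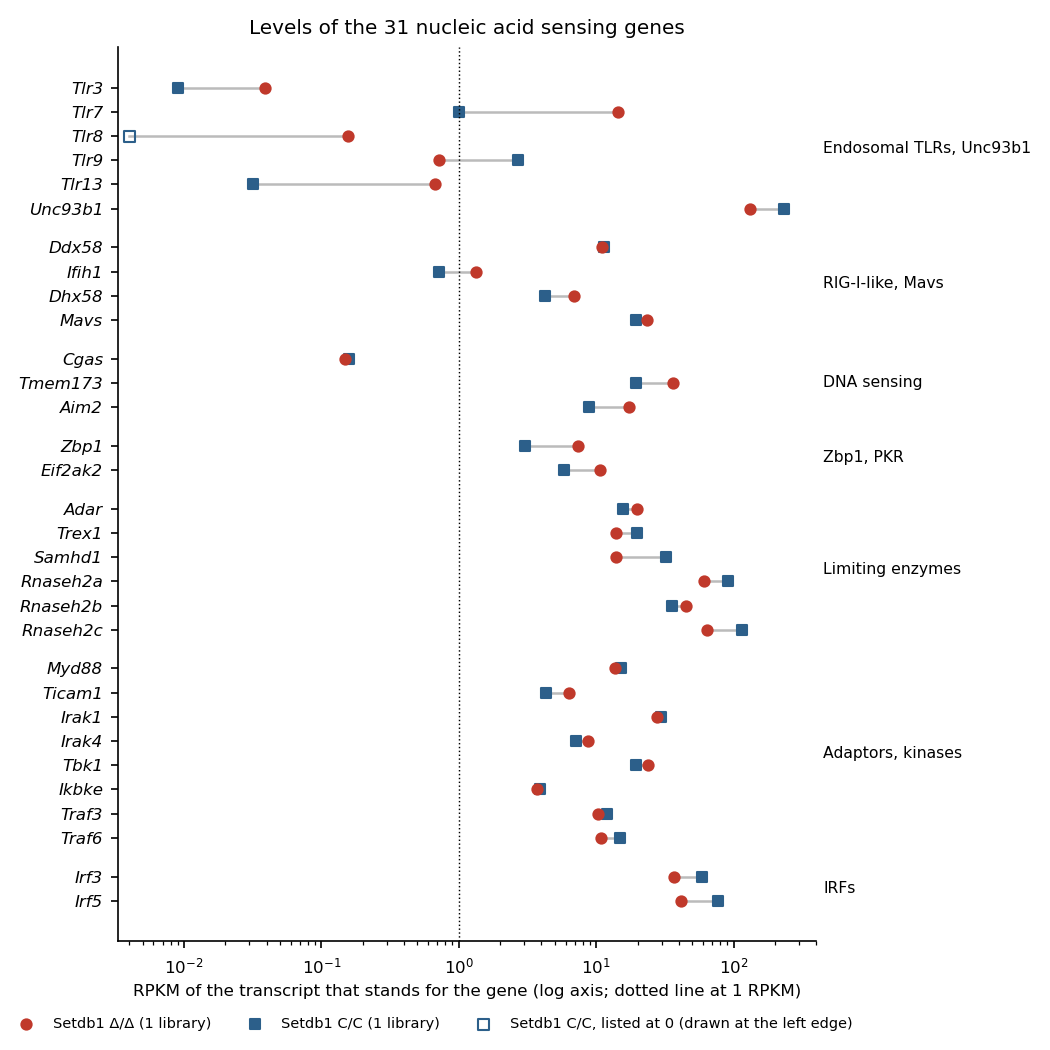
RPKM of each of the 31 genes in the Setdb1 Δ/Δ library (red circles) and the Setdb1 C/C library (blue squares) on a log axis, grouped by role, with an open square for Tlr8, listed at 0 in Setdb1 C/C. Tlr7, Tlr8 and Tlr13 lie far to the right in Setdb1 Δ/Δ, Tlr9 lies to the left, and the adaptors lie close together in both libraries.

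The endosomal receptors moved in opposite ways. Tlr7, which binds single-stranded RNA, had 14.4 RPKM in Setdb1 Δ/Δ (1017 reads) and 1.009 RPKM in Setdb1 C/C (63 reads), on a transcript of 366 bases at chromosome X, 167308342 to 167330491, minus strand (GRCm38). The ratio was 14.25 (9.803 to 20.7) and the log2 ratio was 3.30. Tlr7 was the 13th most abundant of the 31 genes in Setdb1 Δ/Δ and the 26th in Setdb1 C/C, and no other measured sensing gene differed by as much. Its 6 listed transcripts had ratios between 13.4 and 14.25. The longest, of 3897 bases, had 5.25 RPKM in Setdb1 Δ/Δ (3956 reads) and 0.385 RPKM in Setdb1 C/C (256 reads), so the difference was of the same size along the gene. Overlapping transcripts share reads, and these ratios are not independent of each other.

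Tlr9, the receptor for unmethylated CpG DNA, had 0.714 RPKM in Setdb1 Δ/Δ (480 reads) and 2.68 RPKM in Setdb1 C/C (1593 reads). It was 3.76-fold lower in Setdb1 Δ/Δ, with a ratio of 0.266 (0.229 to 0.308) and a log2 ratio of -1.39. Tlr9 had 1 listed transcript, at chromosome 9, 106222598 to 106226883, plus strand. Among the sensing genes past the size rule it had the lowest level in Setdb1 Δ/Δ, and a filter at 5 RPKM left it out. In Setdb1 C/C Tlr9 was more abundant than Tlr7, and in Setdb1 Δ/Δ Tlr7 was more abundant than Tlr9.

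The other endosomal receptors were rare in both libraries. Tlr13, which recognises bacterial ribosomal RNA in mice, had 0.668 RPKM in Setdb1 Δ/Δ (524 reads) and 0.032 RPKM in Setdb1 C/C (22 reads), a ratio of 20.9 (11.6 to 42.65). Tlr8, a receptor for single-stranded RNA in humans, had 0.157 RPKM in Setdb1 Δ/Δ (96 reads) and was listed at 0 in Setdb1 C/C. Its Δ/Δ level was 14.1-fold that of an assumed floor of 3 fragments in the C/C library. The counting interval of the Tlr8 ratio reached down to 11.1-fold. Tlr3, which binds double-stranded RNA, had 0.039 RPKM in Setdb1 Δ/Δ (31 reads) and 0.009 RPKM in Setdb1 C/C (6 reads), and its ratio of 4.33 had a wide interval of 1.35 to 25.2. These 3 genes stayed below 1 RPKM in both libraries, and their log2 ratios with 0.5 RPKM added were 1.13 for Tlr13, 0.39 for Tlr8 and 0.08 for Tlr3. With a plain ratio of 2 as the rule and 20 or more fragments in total as the filter, 30 of the 31 genes entered, 4 were higher (Tlr7, Tlr8, Tlr13 and Zbp1) and 2 were lower (Tlr9 and Samhd1). Among all 16113 genes with that many fragments, 10.3% were higher and 11.1% were lower.

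Unc93b1, the chaperone that carries these receptors to the endosome, was the most abundant of the 31 genes in both libraries. It had 132 RPKM in Setdb1 Δ/Δ and 232 RPKM in Setdb1 C/C, a ratio of 0.569 (0.561 to 0.578), with a log2 ratio of -0.81 that lay within the size rule. Its 4 transcripts had ratios between 0.54 and 0.651. The carrier and Tlr9 were thus below their C/C levels while Tlr7, Tlr8 and Tlr13 were above them.

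Tlr7, Tlr8 and Tlr13 are all on the X chromosome, as is Irak1. Tlr7 and Tlr8 lie 40.6 kb apart. Neighbours are given here among measured protein-coding genes only. The nearest on either side of the pair were Tmsb4x and Prps2. Tmsb4x had 527 RPKM in Setdb1 Δ/Δ and 539 RPKM in Setdb1 C/C. Prps2 had 71.0 RPKM in Setdb1 Δ/Δ and 52.8 RPKM in Setdb1 C/C. Beside Tlr13, Atp7a had 2.48 RPKM in Setdb1 Δ/Δ and 2.15 RPKM in Setdb1 C/C, and Pgk1 had 295 RPKM in Setdb1 Δ/Δ and 329 RPKM in Setdb1 C/C. The nearest measured protein-coding neighbours of Tlr7, Tlr13, Tlr9, Zbp1 and Samhd1 were 10 genes with log2 ratios between -0.57 and 0.42. Of these 10, 0 passed the size rule, against 12.9% of all measured genes in either direction. So few genes cannot be set apart from that share. The next gene out from Tlr9 on the side of lower coordinates, Ppm1m, was lower, with 15.6 RPKM in Setdb1 Δ/Δ and 34.3 RPKM in Setdb1 C/C. On the same side of Tlr7 and Tlr8 the next gene out, Egfl6, was also lower, with 0.848 RPKM in Setdb1 Δ/Δ and 5.44 RPKM in Setdb1 C/C. Over the X chromosome, the shares were 4.75% higher and 4.75% lower of 379 measured genes, and on the autosomes they were 6.12% higher and 6.70% lower of 12144. The part of sex in the levels of Tlr7, Tlr8 and Tlr13 cannot be told apart from that of genotype.

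Markers of other cell types that express these receptors also differed between the libraries. In these bulk samples, more cells of a type and more RNA per cell cannot be told apart. Of 16 monocyte and macrophage markers 13 were measured, and 11 of those were higher in Setdb1 Δ/Δ and 0 lower, with a summed level of 175 RPKM in Setdb1 Δ/Δ and 21.3 RPKM in Setdb1 C/C. Lyz2 made up most of that sum, with 120 RPKM in Setdb1 Δ/Δ and 9.01 RPKM in Setdb1 C/C, whereas Csf1r, the receptor that defines the lineage, had 7.17 RPKM in Setdb1 Δ/Δ and 4.04 RPKM in Setdb1 C/C. Of 10 plasmacytoid dendritic cell markers 8 were measured, 6 were higher and 0 lower, with sums of 196 RPKM in Setdb1 Δ/Δ and 120 RPKM in Setdb1 C/C. Bst2, with 95.7 RPKM in Setdb1 Δ/Δ and 43.8 RPKM in Setdb1 C/C, and Tcf4, with 74.0 RPKM in Setdb1 Δ/Δ and 59.0 RPKM in Setdb1 C/C, made up most of these sums. Siglech, a defining marker of these cells, had 5.64 RPKM in Setdb1 Δ/Δ and 0.85 RPKM in Setdb1 C/C, and Cox6a2 went the other way, with 8.63 RPKM in Setdb1 Δ/Δ and 14.9 RPKM in Setdb1 C/C. No marker of these lists was at 0 in either library. All 7 measured of 12 neutrophil markers were higher, with sums of 101 RPKM in Setdb1 Δ/Δ and 7.68 RPKM in Setdb1 C/C, and Elane and Mpo were at 0 in Setdb1 C/C. Of 10 erythroid and platelet markers 7 were measured and 6 were higher, with sums of 78.0 RPKM in Setdb1 Δ/Δ and 9.13 RPKM in Setdb1 C/C. Few markers of conventional dendritic cells (2 of 9), mast cells and basophils (1 of 8), NK cells (0 of 7), T cells (3 of 9) and stroma (0 of 7) were measured. Of these, Clec10a of the dendritic cell list, Prss34 of the mast cell and basophil list and Cd4 of the T cell list were higher, and 0 were lower. The part of these cell types in the levels of the sensing genes was not tested.

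The labelled cell type was borne out by its markers in both libraries. All 14 pro-B markers were measured, with sums of 4356 RPKM in Setdb1 Δ/Δ and 5164 RPKM in Setdb1 C/C. Of these, Vpreb2, a surrogate light chain gene, was higher and Cd79a, Cd79b, Pax5 and Rag1 were lower in Setdb1 Δ/Δ. Markers of later B cells, which are known to use Tlr9, summed to 327 RPKM in Setdb1 Δ/Δ and 1511 RPKM in Setdb1 C/C, and all 9 measured of the 10 listed were lower, as was Tlr9. Ms4a1 (CD20) had 5.07 RPKM in Setdb1 Δ/Δ and 69.3 RPKM in Setdb1 C/C. The part of B cell stage in the level of Tlr9 was not tested.

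**Figure D2:**
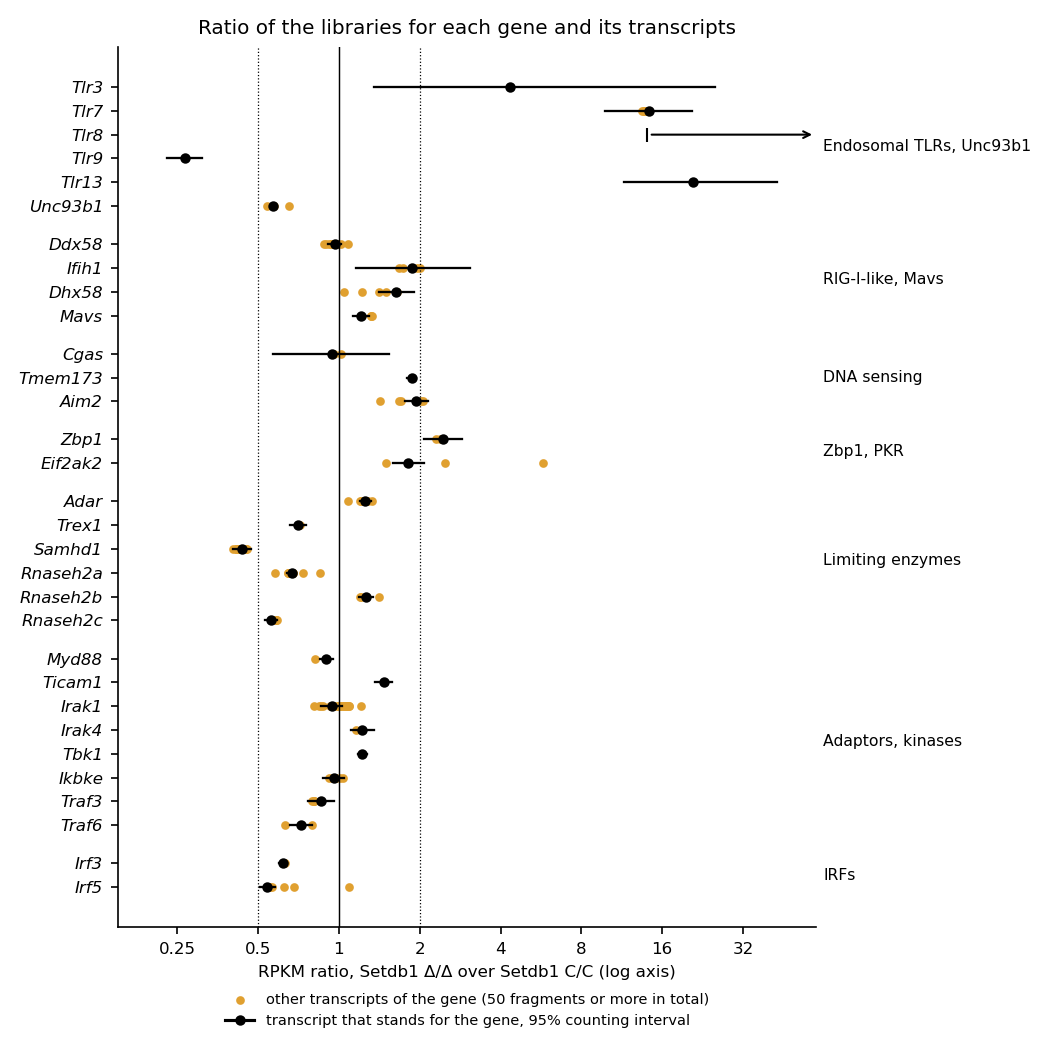
Ratio of RPKM, Setdb1 Δ/Δ over Setdb1 C/C, on a log axis for the transcript that stands for each gene (black, with its 95% counting interval) and for its other transcripts with 50 or more fragments (orange), with dotted lines at a 2-fold difference and an arrow for Tlr8 that starts at its ratio against the floor of 3 fragments. The 6 Tlr7 transcripts lie together near 14, the 10 Samhd1 transcripts lie between 0.402 and 0.454, and the 4 Eif2ak2 transcripts are spread between 1.5 and 5.77.

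Among the RIG-I-like receptors, none passed the size rule, against 12.9% of all measured genes in either direction. Ddx58 (RIG-I), which detects short double-stranded RNA ends, had 11.1 RPKM in Setdb1 Δ/Δ and 11.5 RPKM in Setdb1 C/C, a ratio of 0.963 (0.907 to 1.02). Ifih1 (MDA5), which detects long double-stranded RNA, had 1.34 RPKM in Setdb1 Δ/Δ (114 reads) and 0.721 RPKM in Setdb1 C/C (54 reads), a ratio of 1.86 (1.16 to 3.065). Dhx58 (LGP2), which regulates both receptors, had 6.95 RPKM in Setdb1 Δ/Δ and 4.25 RPKM in Setdb1 C/C, a ratio of 1.63 (1.41 to 1.90). Ddx58 was thus nearly level, and the ratios of Ifih1 and Dhx58 lay above 1 by more than counting error. The ratios of the 5 Ifih1 transcripts were between 1.68 and 2.01, and those of the 6 Dhx58 transcripts between 1.05 and 1.64. Mavs, the mitochondrial adaptor of these receptors, had 23.6 RPKM in Setdb1 Δ/Δ and 19.45 RPKM in Setdb1 C/C.

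The DNA sensing genes differed in abundance more than in ratio. Cgas, the enzyme that makes the messenger cGAMP on DNA, was at 0.15 RPKM in Setdb1 Δ/Δ (73 reads) and 0.159 RPKM in Setdb1 C/C (68 reads), a ratio of 0.943 (0.569 to 1.54). Its receptor Tmem173 was far more abundant, with 36.4 RPKM in Setdb1 Δ/Δ and 19.5 RPKM in Setdb1 C/C, a ratio of 1.865 (1.795 to 1.94). Aim2, the DNA sensor of an inflammasome, had 17.4 RPKM in Setdb1 Δ/Δ and 8.93 RPKM in Setdb1 C/C, a ratio of 1.94 (1.76 to 2.15). The log2 ratios of 0.88 for Tmem173 and 0.92 for Aim2 lay just inside the size rule. Aim2 passed it, at 1.02, when ratios were centred on the median of all measured genes.

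Zbp1, a sensor of Z-form nucleic acid that signals to Ripk3, was higher in Setdb1 Δ/Δ. It had 7.41 RPKM in Setdb1 Δ/Δ (1103 reads) and 3.04 RPKM in Setdb1 C/C (399 reads), on a coding transcript of 770 bases at chromosome 2, 173213735 to 173218910, minus strand. The ratio was 2.44 (2.07 to 2.88) and the log2 ratio was 1.16. The 3 transcripts had ratios between 2.3 and 2.44. The longest had 1.73 RPKM in Setdb1 Δ/Δ and 0.754 RPKM in Setdb1 C/C, and at those levels the added 0.5 RPKM brought the log2 ratio to 0.83, inside the size rule.

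Eif2ak2 (PKR), a kinase that halts translation when it binds double-stranded RNA, was within the size rule by its most abundant transcript and past it by its coding transcript. The transcript that stands for the gene is a 5′ one of 704 bases typed as a retained intron, with 10.6 RPKM in Setdb1 Δ/Δ and 5.85 RPKM in Setdb1 C/C, a ratio of 1.82 (1.59 to 2.07). The coding transcript of 4313 bases had 9.98 RPKM in Setdb1 Δ/Δ and 4.005 RPKM in Setdb1 C/C, a ratio of 2.49 (2.35 to 2.65) and a log2 ratio of 1.22. A transcript of 628 bases near the 3′ end, also typed as a retained intron, had 5.76 RPKM in Setdb1 Δ/Δ and 0.998 RPKM in Setdb1 C/C, a ratio of 5.77 (4.29 to 7.77). The ratio was therefore larger for this short 3′ transcript than for the 5′ one, and reads of introns and exons were not separated. The kit does not mark strand, and Gm26637, on the opposite strand, covers 21.2% of the 704-base transcript. The gene n-R5s29, also on the opposite strand, covers 7.5% of the 628-base one.

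**Figure D3:**
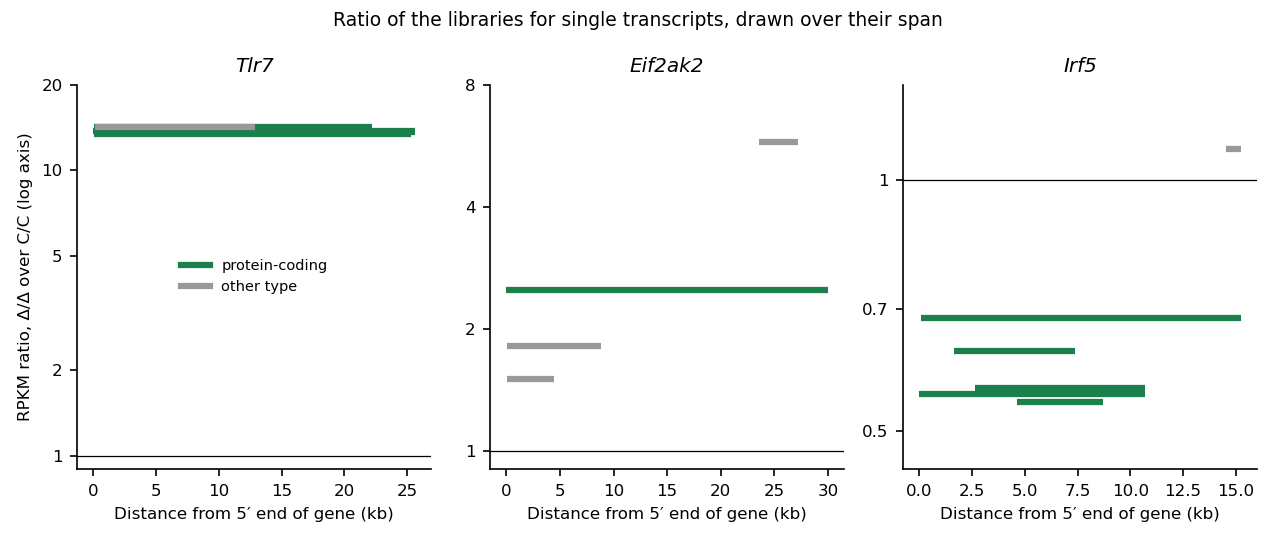
Ratio of RPKM, Setdb1 Δ/Δ over Setdb1 C/C (log axis), for each transcript of Tlr7, Eif2ak2 and Irf5, drawn over its span as distance from the 5′ end of the gene in kilobases (green, protein-coding; grey, other types). The Tlr7 transcripts agree along the gene, the Eif2ak2 ratio is 1.5 for a short 5′ transcript and 5.77 for a 3′ one, and 1 Irf5 transcript at the 3′ end lies at 1.09, apart from the others.

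Several RNA sensors are known interferon-stimulated genes, so the core of the interferon-stimulated response element, which is GAAA, NN for any bases and GAAA again, was looked for in RefSeq promoter windows (GRCm38.p6, 250 bases before to 50 bases after a start, both strands). Of the 31 genes, 25 had a window. The other 6, Tlr7, Zbp1, Tmem173, Dhx58, Unc93b1 and Rnaseh2b, were not searched, and they include both genes called higher. The windows of 4 genes held the motif, as did those of 3.99% of 27025 genes. The 30 bases around each match are shown on the gene's own strand, 5′ to 3′, because they are the sites that these 4 genes share, with the motif in capitals. It reads as its reverse complement in Ddx58.
Ddx58: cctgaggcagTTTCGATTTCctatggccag
Ifih1: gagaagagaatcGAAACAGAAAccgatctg
Eif2ak2: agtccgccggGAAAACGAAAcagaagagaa
Myd88: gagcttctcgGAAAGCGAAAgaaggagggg
The Ddx58 bases are chr4:40239804-40239833, those of Ifih1 chr2:62646206-62646235, those of Eif2ak2 chr17:78882535-78882564 and those of Myd88 chr9:119340039-119340068, all 4 on the minus strand. Counted from the start of the transcript as base 1, the motif began at base 3 in Ddx58, at base 33 in Ifih1 and at base 19 in Eif2ak2, and it began 40 bases before the start in Myd88. The log2 ratios of the 4 genes were -0.05 for Ddx58, 0.59 for Ifih1, 0.81 for Eif2ak2 and -0.15 for Myd88, so the 4 genes had ratios on either side of 1. Over all measured genes with a window, 11.7% of the 343 with the motif were higher and 3.50% lower, and of the 8522 without it 5.17% were higher and 5.07% lower. A match is a description of the letters and not a bound site.

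Of the 6 genes of enzymes that limit ligands or their detection, 1 was past the size rule, against 12.9% of all measured genes. Samhd1, which destroys deoxynucleotides and so limits reverse transcription, had 14.0 RPKM in Setdb1 Δ/Δ (1847 reads) and 32.3 RPKM in Setdb1 C/C (3750 reads). The ratio was 0.435 (0.402 to 0.471), the level was 2.30-fold lower in Setdb1 Δ/Δ and the log2 ratio was -1.17. These values are from a transcript of 681 bases typed as a retained intron, at chromosome 2, 157101694 to 157110612, minus strand. All 10 listed transcripts had ratios between 0.402 and 0.454, and the longest, a coding one of 3926 bases, had 6.82 RPKM in Setdb1 Δ/Δ and 16.4 RPKM in Setdb1 C/C.

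The 3 subunits of RNase H2, which removes RNA paired with or built into DNA, did not move together. Rnaseh2a, the catalytic subunit, had 60.4 RPKM in Setdb1 Δ/Δ and 90.7 RPKM in Setdb1 C/C, a ratio of 0.666 (0.642 to 0.692). Rnaseh2c had 64.0 RPKM in Setdb1 Δ/Δ and 114 RPKM in Setdb1 C/C, a ratio of 0.56 (0.532 to 0.589). Rnaseh2b had 45.1 RPKM in Setdb1 Δ/Δ and 35.7 RPKM in Setdb1 C/C, a ratio of 1.26 (1.19 to 1.34). These Rnaseh2b values are from a transcript of 628 bases typed for nonsense-mediated decay. Its 4 transcripts had ratios between 1.195 and 1.416, the highest on a coding one of 1494 bases. The intervals of the first pair lay below 1 and that of Rnaseh2b above it, and all 3 log2 ratios were within the size rule.

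Adar, which edits adenosines in double-stranded RNA and so hides self RNA from Ifih1, had 19.8 RPKM in Setdb1 Δ/Δ and 15.8 RPKM in Setdb1 C/C, a ratio of 1.26 (1.2 to 1.32). Exons of Chrnb2, on the opposite strand, cover 15.1% of its transcript, and Chrnb2 itself had 0.203 RPKM in Setdb1 Δ/Δ and 0.275 RPKM in Setdb1 C/C. Trex1, a DNA exonuclease that keeps cytosolic DNA low, had 13.9 RPKM in Setdb1 Δ/Δ and 19.7 RPKM in Setdb1 C/C, a ratio of 0.705 (0.657 to 0.756). Both Trex1 transcripts lie wholly within exons of Atrip on the same strand, so reads of these genes cannot be told apart. Atrip had 13.7 RPKM in Setdb1 Δ/Δ and 19.2 RPKM in Setdb1 C/C.

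None of the 8 adaptors and kinases passed the size rule, against 12.9% of all measured genes in either direction. So few genes cannot be set apart from that share. Their log2 ratios lay between -0.45 and 0.50 with a median of -0.07. Their summed level was 105 RPKM in Setdb1 Δ/Δ and 106.5 RPKM in Setdb1 C/C. Myd88, the adaptor of Tlr7 and Tlr9, had 13.7 RPKM in Setdb1 Δ/Δ and 15.2 RPKM in Setdb1 C/C. Exons of Acaa1a, on the opposite strand, cover 11.4% of its transcript, and Acaa1a had 39.3 RPKM in Setdb1 Δ/Δ and 43.1 RPKM in Setdb1 C/C, so the level of Myd88 is uncertain. Ticam1 (TRIF), the adaptor of Tlr3, had 6.30 RPKM in Setdb1 Δ/Δ and 4.295 RPKM in Setdb1 C/C, and its ratio of 1.47 (1.36 to 1.58) was the highest of the 8. Both of these signalling adaptors lay within the size rule.

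The kinases were close to level. Irak4, which starts the kinase relay at Myd88, had 8.78 RPKM in Setdb1 Δ/Δ and 7.19 RPKM in Setdb1 C/C. Irak1, its X-linked substrate, had 27.8 RPKM in Setdb1 Δ/Δ and 29.6 RPKM in Setdb1 C/C, a ratio of 0.94 (0.861 to 1.029). The part of sex in the level of Irak1 cannot be told apart from that of genotype. Tbk1, the kinase that phosphorylates Irf3, had 23.8 RPKM in Setdb1 Δ/Δ and 19.4 RPKM in Setdb1 C/C. Its relative Ikbke had 3.71 RPKM in Setdb1 Δ/Δ and 3.88 RPKM in Setdb1 C/C. The ubiquitin ligases both lay below their C/C levels. Traf3, which links Mavs and Ticam1 to Tbk1, had 10.3 RPKM in Setdb1 Δ/Δ and 12.02 RPKM in Setdb1 C/C, and Traf6, which acts after the Irak kinases, had 10.8 RPKM in Setdb1 Δ/Δ and 14.9 RPKM in Setdb1 C/C.

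Both transcription factors of the group had ratios below 1. Irf3, which turns on interferon beta after Tbk1, had 36.6 RPKM in Setdb1 Δ/Δ and 59.2 RPKM in Setdb1 C/C, a ratio of 0.618 (0.596 to 0.64). Irf5, which acts after Myd88, had 41.4 RPKM in Setdb1 Δ/Δ and 76.6 RPKM in Setdb1 C/C, a ratio of 0.541 (0.508 to 0.576). Their log2 ratios of -0.69 for Irf3 and -0.88 for Irf5 were within the size rule. Of the 6 Irf5 transcripts, 1 had a ratio of 1.09, with 26.3 RPKM in Setdb1 Δ/Δ and 24.2 RPKM in Setdb1 C/C. That transcript lies wholly within exons of Tnpo3 on the opposite strand, which had 40.6 RPKM in Setdb1 Δ/Δ and 36.1 RPKM in Setdb1 C/C, and its reads cannot be assigned to Irf5.

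**Figure D4:**
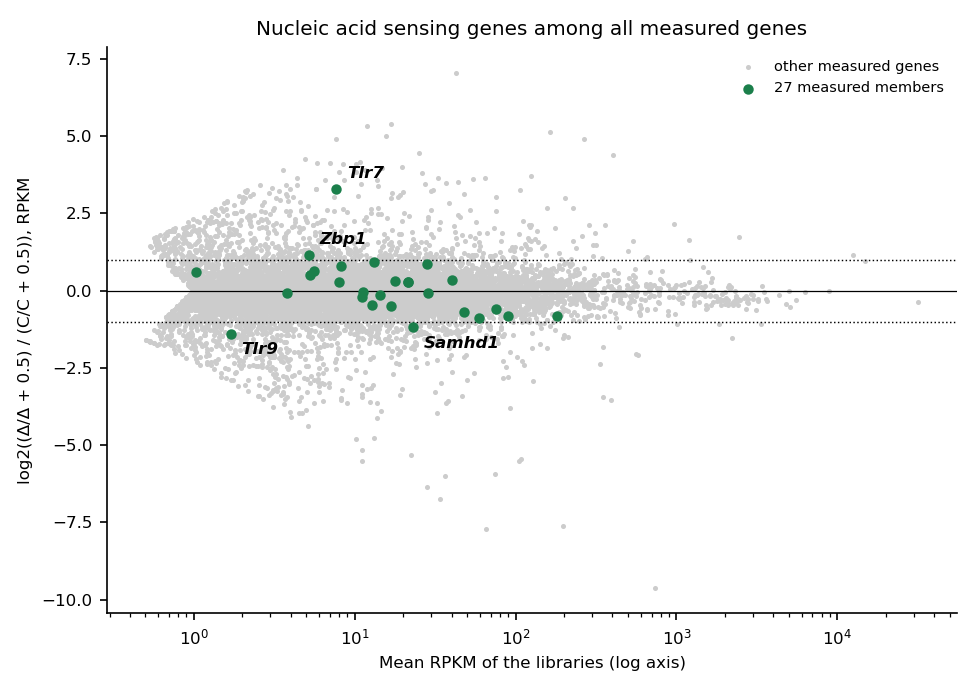
Log2 ratio of RPKM with 0.5 added, Setdb1 Δ/Δ over Setdb1 C/C, against mean RPKM (log axis) for the 27 measured sensing genes (green) and all other measured genes (grey), with dotted lines at a 2-fold difference. Tlr7, at 3.30, and Zbp1 lie above the band and Tlr9 and Samhd1 below it, while the other 23 lie inside.

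Other genes of the same pathways were described in 6 lists. Of 103 genes 75 were measured, 5 were higher and 2 were lower, and their median log2 ratio was 0.01, against 6.28% higher, 6.66% lower and a median of -0.09 over all measured genes. The list of Toll-like receptors that sense lipids and proteins, with their partners, held 11 genes, and 7 were measured. Ly96 (MD-2), the partner of Tlr4, was higher, with 3.26 RPKM in Setdb1 Δ/Δ and 0.709 RPKM in Setdb1 C/C. Tlr4 itself had 6.53 RPKM in Setdb1 Δ/Δ and 3.93 RPKM in Setdb1 C/C. Ly86, the partner of Cd180, had 22.2 RPKM in Setdb1 Δ/Δ and 10.9 RPKM in Setdb1 C/C and fell just short of the rule. Cd180 itself went the other way, with 5.57 RPKM in Setdb1 Δ/Δ and 8.15 RPKM in Setdb1 C/C. So did Tlr12, with 0.936 RPKM in Setdb1 Δ/Δ and 1.67 RPKM in Setdb1 C/C. The median of the 7 was 0.29.

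All 15 genes of endosomal receptor folding, trafficking, cleavage and nuclease action were measured, with 2 higher, 0 lower and a median of -0.21. Hsp90b1 (gp96), the folding chaperone of most Toll-like receptors, had 466 RPKM in Setdb1 Δ/Δ and 107 RPKM in Setdb1 C/C, a ratio of 4.355 (4.26 to 4.45). Its partner Cnpy3 had 32.3 RPKM in Setdb1 Δ/Δ and 40.1 RPKM in Setdb1 C/C. Of the proteases that cleave endosomal receptors, Ctsl was higher, with 9.63 RPKM in Setdb1 Δ/Δ and 4.11 RPKM in Setdb1 C/C, and Ctsb, with 96.4 RPKM in Setdb1 Δ/Δ and 48.1 RPKM in Setdb1 C/C, lay just inside the rule. Ctss was level, at 99.7 RPKM in Setdb1 Δ/Δ and 93.9 RPKM in Setdb1 C/C. Rnaset2a, a lysosomal ribonuclease with a near-identical copy in Rnaset2b, had 6.53 RPKM in Setdb1 Δ/Δ and 13.5 RPKM in Setdb1 C/C, whereas Rnaset2b had 7.74 RPKM in Setdb1 Δ/Δ and 5.29 RPKM in Setdb1 C/C. Reads of these copies can be placed on either, so their levels are uncertain.

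Of 18 signalling relay genes 17 were measured, with 0 higher, 2 lower and a median of -0.23. Irak2, a kinase that sustains Toll-like receptor signalling, had 1.06 RPKM in Setdb1 Δ/Δ and 5.92 RPKM in Setdb1 C/C, a ratio of 0.179 (0.152 to 0.211). Peli1, a ubiquitin ligase of the same relay, had 5.44 RPKM in Setdb1 Δ/Δ and 12.4 RPKM in Setdb1 C/C. Irak2 thus differed where Irak1 and Irak4 were near level.

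Of 26 regulators of the RIG-I-like and STING routes 22 were measured, with 1 higher, 0 lower and a median of 0.23. Ifi203, a relative of Aim2, was the higher one, with 42.7 RPKM in Setdb1 Δ/Δ and 20.1 RPKM in Setdb1 C/C. Enpp1, which degrades cGAMP, had 2.25 RPKM in Setdb1 Δ/Δ and 1.07 RPKM in Setdb1 C/C, and it was within the rule on the log2 scale. Ripk3, the partner of Zbp1, had 19.5 RPKM in Setdb1 Δ/Δ and 20.3 RPKM in Setdb1 C/C.

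Interferon genes themselves were at or near the limit of detection in both libraries. None of the 18 was measured, and 14 of them, Ifnb1 among them, were listed at 0 in both, where a count of 0 allows up to 3 fragments. The highest level was that of Ifng, at 0 in Setdb1 Δ/Δ and 0.204 RPKM in Setdb1 C/C. Of 15 interferon receptor, STAT and IRF genes 14 were measured, with 1 higher, 0 lower and a median of -0.11. Irf7, which amplifies interferon production after Tlr7 and Tlr9 and is itself interferon-stimulated, was the higher one, with 7.30 RPKM in Setdb1 Δ/Δ and 1.18 RPKM in Setdb1 C/C, a ratio of 6.21 (4.90 to 7.89). Irf9 had 25.9 RPKM in Setdb1 Δ/Δ and 17.3 RPKM in Setdb1 C/C. Irf4 had 59.1 RPKM in Setdb1 Δ/Δ and 106 RPKM in Setdb1 C/C. Of the Irf genes named, Irf7 and Irf9 had ratios above 1, and Irf3, Irf4 and Irf5 had ratios below 1.

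**Figure D5:**
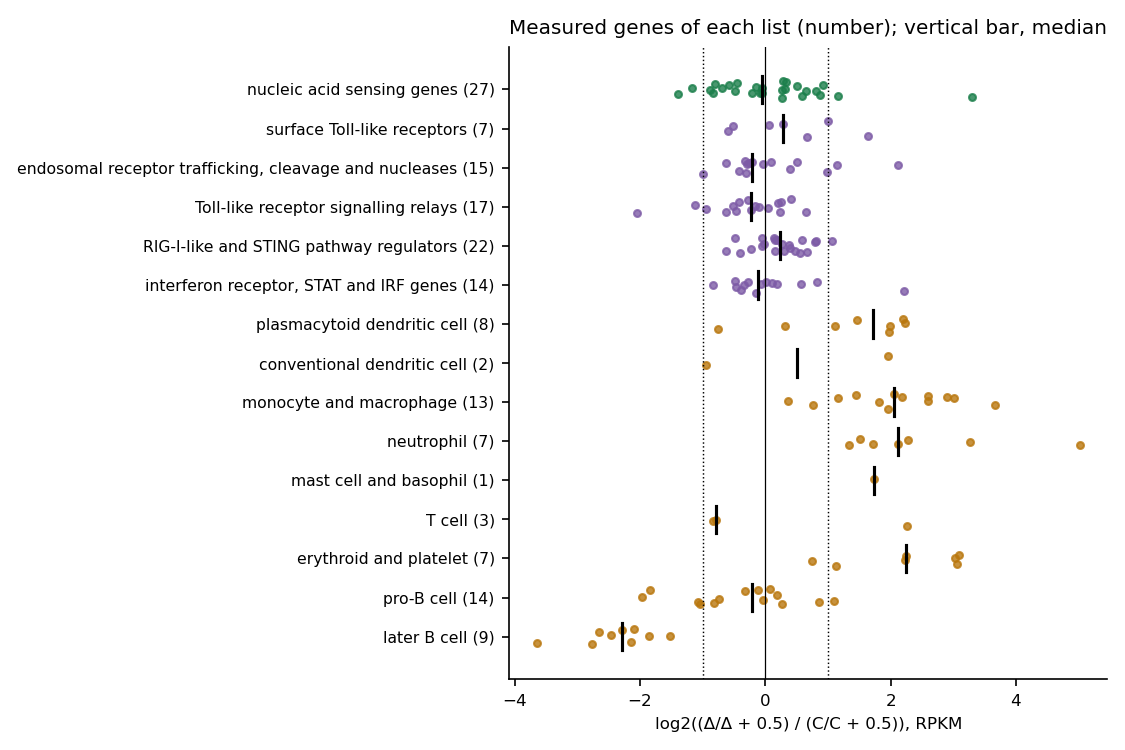
Log2 ratio of RPKM with 0.5 added, Setdb1 Δ/Δ over Setdb1 C/C, for each measured gene of the sensing genes (green), the pathway lists (purple) and the cell type marker lists (brown), with a vertical bar at each median and the number measured in brackets. The sensing genes and pathway lists centre near 0, the monocyte and macrophage and the neutrophil markers have medians of 2.06 and 2.12, and the later B cell markers have a median of -2.28.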

How the data were processed

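RNA from 1 Setdb1 Δ/Δ and 1 Setdb1 C/C culture was depleted of ribosomal RNA, made into libraries with a kit that does not mark strand and sequenced as 101 bp pairs, per the labels' protocols. The authors deposited 1 RPKM value per transcript and library for 93615 transcripts, rounded to 3 decimals. The submitters' processing notes name TopHat2 2.0.9, bedtools, mm9 and mm10. Not given in the sources used here are the build and annotation of this table and how reads shared by transcripts were counted. Its columns headed Wt and Del were read as Setdb1 C/C and Setdb1 Δ/Δ.

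Transcripts were matched to gene names and GRCm38 coordinates in GENCODE M21 (89571, 95.7%), and each gene was represented by its transcript of highest mean level. RPKM multiplied by transcript length fell within 0.1 of a whole read for 96.1% of low values in Setdb1 Δ/Δ and 96.9% in Setdb1 C/C, which gave the depths. In both libraries more transcripts had 2 reads than 1, so 2 reads were taken as 1 fragment in the intervals of Poisson ratios. The depth search and the size rule were tested on simulated data. The sensing genes and all lists were chosen with earlier results of these data known. All sensing genes are named, with the genes of each pathway list past the size rule and up to 4 others of largest log2 ratio, and up to 3 markers per cell type. Genes named beyond that rule, as neighbours, overlaps or partners (Ctss, Cnpy3, Ripk3, Ppm1m and Egfl6 among them), were chosen after their values were seen. So were the pro-B and plasmacytoid dendritic cell markers named beyond 3. Values of some list genes are not reported here. Python 3.11.15, numpy 2.4.6, pandas 2.3.3 and scipy 1.17.1 were used.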

Additional observations from a re-analysis of the deposited data

How the results depend on the processing

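No alternative turned a call to the other direction. Tlr7, Zbp1, Tlr9 and Samhd1 kept their calls with pseudocounts of 0.1 and 1 RPKM, a filter on the mean level, centring on the median of all measured genes, a common RPKM sum and the coding transcript. With 5 RPKM as the filter 1 of 24 sensing genes was lower, because Tlr9 was left out, against 5.59% of all genes. With the longest transcript Zbp1, at 0.83, was within the rule. Without a filter 3 of 31 sensing genes were higher (with Tlr13), against 2.37% of all genes. Under either scaling 3 of 27 were higher (with Aim2), against 7.22% when centred and 7.06% with a common RPKM sum. The coding transcript, an alternative added after the data were seen, gave 3 of 27 higher (with Eif2ak2), against 6.14%. RPKM summed over transcripts gave 4 of 28 higher (with Tlr13 and Eif2ak2), against 7.04%. A 1.5-fold rule gave 7 higher (adding Ifih1, Dhx58, Tmem173, Aim2 and Eif2ak2) and 6 lower (adding Unc93b1, Rnaseh2c, Irf3 and Irf5), and a 4-fold rule gave 1 higher (Tlr7) and 0 lower. Protein-coding genes alone as the background gave 5.53% higher and 4.94% lower. The median of the sensing genes was 0.08 without a filter, 0.11 with 5 RPKM, 0.12 with summed transcripts, 0.10 with the longest transcript and 0.04 when centred. In the pathway lists, a pseudocount of 0.1 RPKM gave 8 higher and 4 lower (7.34% and 8.16% of all measured genes), and the longest transcript gave 1 lower (6.19% of all measured genes). No paired analysis was possible because each genotype had 1 library, and for the same reason no replicate could be left out. Counting error limits Tlr3, Tlr8 and Cgas, which had fewer than 100 fragments in each library, and the short transcript that stands for Ifih1.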
